A study of Mus musculus with 5 samples.

Results

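*Tbx4*, *Tbx5* and *Pitx1* are the transcription factors that mark limb identity, and their UMI counts (unique molecular identifiers, each standing for 1 captured RNA molecule) were followed through single-cell RNA-sequencing (scRNA-seq) of mouse penis, forelimb and hindlimb. They were picked by symbol and are 3 of 32285 genes in the count tables, of which 28642 had at least 1 UMI. *Tbx4* and *Tbx5* are closely related T-box factors: *Tbx5* is the classic gene of the forelimb bud and *Tbx4* of the hindlimb bud, where they promote outgrowth through *Fgf10* in the mesenchyme. *Pitx1* is a paired-type homeodomain factor of the posterior body that acts upstream of *Tbx4* in the hindlimb and gives it hindlimb shape. The genital tubercle, from which the penis forms, develops next to the hindlimb field and shares many of its signals and Hox genes.

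All tissue came from male mice with no transgene or treatment. Their strain is C57BL/6N in the labels but C57BL/6J in the study's methods, and which is right was not tested. The 3 penis libraries (penis 1, 2 and 3) were made from the glans of pups at postnatal day 6, with the prepuce removed. For penis tissue of that age the study's methods give 3 males of 2 litters, without tying them to a library. Forelimb and hindlimb each gave 1 library, from male embryos at day 15 after conception. The study's methods give 6 such embryos, without tying them to a library. The labels do not say which male or litter gave which penis library, nor how many embryos were joined in a limb library, and stage and tissue cannot be told apart in any comparison of penis with limb.

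Filtering kept 5708 to 7085 cells of each penis library (median depth 8791.5 to 9909 UMIs), 22057 forelimb cells (5358 UMIs) and 20514 hindlimb cells (6057 UMIs). A cell was given a type when it held at least 3 markers of 1 of 11 lists of 6 to 8 genes, none of which included the limb identity factors. Since nothing but these markers was used, each type is called "-like". Mesenchyme-like cells made up 56.8% to 57.7% of penis, 48.6% of forelimb and 47.9% of hindlimb cells, and held a median of 4 or 5 of 6 mesenchyme markers in every library. Forelimb and hindlimb shared 203 barcodes, and pairs of penis libraries 20 to 37. As a check of the limb labels, *Hoxc10*, a posterior Hox gene, had 1 UMI in forelimb and 1989 UMIs in hindlimb mesenchyme-like cells. Levels are given as CPM: the UMIs of a gene scaled by the sum of UMIs of the same cells. Intervals on single libraries are exact 95% Poisson or Clopper-Pearson intervals that cover counting error only.

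In the mouse genome (build GRCm38, GENCODE M21), *Tbx4* (ENSMUSG00000000094) lies on the plus strand at chr11:85886422-85916097, *Tbx5* (ENSMUSG00000018263) on the plus strand at chr5:119832668-119885219 and *Pitx1* (ENSMUSG00000021506) on the minus strand at chr13:55825051-55836192. Because the T-box factors share ancestry, their transcripts were compared for letters that could send a read of one to the other. No run of 31 bases was shared by any pair of the genes. The longest run that *Pitx1* shared with another of the genes was 15 bases, with *Tbx5*. *Pitx1* is overlapped over 9943 bases by the antisense gene *Gm47071* and over 736 bases, on its own strand, by the lincRNA *Gm28760*. *Gm28760* had only 0 to 14 UMIs in the mesenchyme-like cells of a library.

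All of the limb identity factors were present in the mesenchyme-like cells of the penis, where *Tbx4* stood above both limbs, *Tbx5* near the forelimb and *Pitx1* between the limbs. *Tbx4* was at 142, 141 and 149 CPM in penis 1, 2 and 3, a mean of 144 ± 4.56 CPM (SD, n = 3). It was at 36.9 CPM (35.5 to 38.4) in the hindlimb and 5.01 CPM (4.49 to 5.57) in the forelimb. All 3 penis libraries were above both limbs, and how many other genes do so was not computed.

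*Tbx5* was at 62.0, 57.3 and 60.7 CPM in the penis libraries, a mean of 60.0 ± 2.45 CPM (SD, n = 3). The forelimb held 70.8 CPM (68.8 to 72.8) and the hindlimb 4.28 CPM (3.81 to 4.80). Every penis library lay below the forelimb and far above the hindlimb.

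*Pitx1* was at 52.1, 52.2 and 52.8 CPM in the penis libraries, a mean of 52.4 ± 0.398 CPM (SD, n = 3). It reached 89.3 CPM (87.1 to 91.6) in the hindlimb and 0.708 CPM (0.521 to 0.937) in the forelimb. Its penis values lay below the hindlimb value and above the forelimb value in all 3 libraries. They were the most even of the genes, but all lay inside the counting interval of penis 1 (49.9 to 54.4 CPM).

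**Figure D1:**
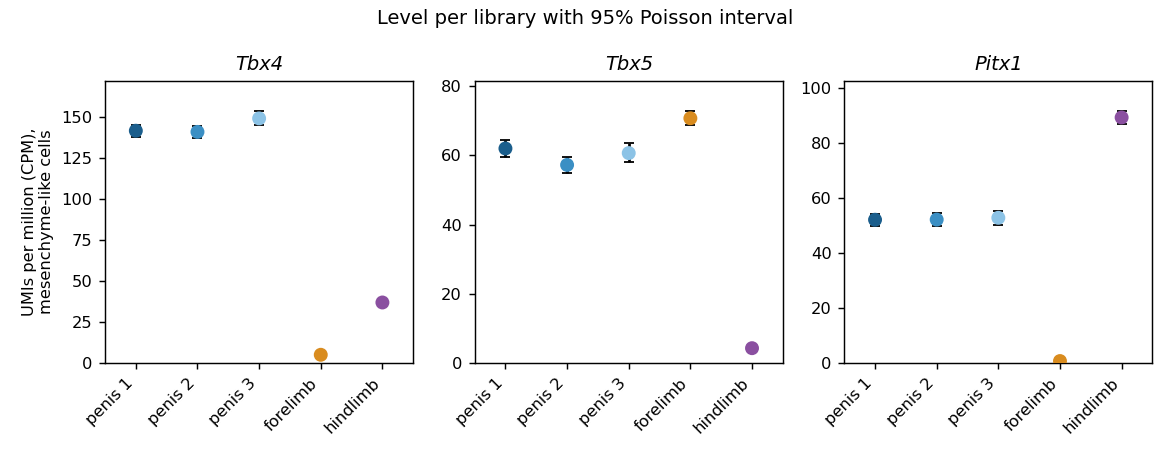
Level of *Tbx4*, *Tbx5* and *Pitx1* in the mesenchyme-like cells of each library, in CPM (axis from 0), with 95% Poisson intervals of the count. Each point is 1 library: *Tbx4* is highest in the 3 penis libraries (141 to 149 CPM), *Tbx5* is close to 60 CPM in penis against 70.8 CPM in forelimb, and *Pitx1* in penis lies between the forelimb and the hindlimb.

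The same order was seen over all filtered cells. There *Tbx4* averaged 106 ± 4.30 CPM in the penis libraries against 32.0 in the hindlimb and 4.94 in the forelimb, while *Tbx5* averaged 45.1 ± 1.39 and *Pitx1* 42.7 ± 0.779 CPM in the penis (SD, n = 3). In such sums, fewer cells of a type and less RNA per cell cannot be told apart, so the tests below used mesenchyme-like cells alone. These cells are themselves a mixed pool, so the same limit holds for kinds of cell within it.

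To ask whether the penis differed from each limb, UMIs of mesenchyme-like cells were summed per library and tested with edgeR over 20676 genes, with a call at an adjusted p under 0.01 and an absolute log2 fold change over 1. All 3 genes passed the filter on low counts. The spread came from the 3 penis libraries, and each lone limb library was assumed to vary like them. Penis libraries are separate samples, but the labels do not tie them to animals, so p-values measure the spread between these libraries.

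Against the hindlimb, *Tbx5* was higher in the penis by 3.80 on the log2 scale (SE 0.09, edgeR adjusted p = 9.25e-13) and *Tbx4* by 1.95 (SE 0.07, edgeR adjusted p = 2.47e-11). *Pitx1* was lower by a log2 fold change of -0.78 (SE 0.06, edgeR adjusted p = 6.19e-08), which lies short of the fold limit and was not called. Of all genes tested, 24.6% were called in this comparison, so a call by itself was common. The differences of *Tbx5* and *Tbx4* had the same direction in all 3 penis libraries.

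Against the forelimb, *Pitx1* was higher in the penis by a log2 fold change of 6.17 (SE 0.12, edgeR adjusted p = 1.85e-13) and *Tbx4* by 4.81 (SE 0.09, edgeR adjusted p = 1.52e-13). *Tbx5* was lower by -0.27 (SE 0.06, edgeR adjusted p = 0.00193) and not called. Here 23.4% of all genes were called. Both comparisons share the penis libraries, so they are not independent. When the limbs were joined into 1 group of 2, *Tbx4* alone was called (log2 fold change 2.76), beside 25.5% of all genes called. *Tbx5* gave 0.65 and *Pitx1* 0.21 (edgeR adjusted p = 0.461 and 0.863). The limbs differ widely in *Tbx5* and *Pitx1*, and in the joined group that difference counts as spread. The joined fit therefore cannot show whether the penis differs from a limb in these genes.

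The share of cells with a UMI depended on depth. In the penis, 65.5%, 63.5% and 61.7% of mesenchyme-like cells held a *Tbx4* UMI, and 39.1 ± 2.09% held *Tbx5* and 27.5 ± 0.346% *Pitx1* (SD, n = 3). Without thinning, *Tbx5* was found in 30.8% of forelimb cells, below the 37.9% to 41.5% of the penis libraries and opposite to the order of the CPM. Because penis cells were deeper than limb cells (medians of 9074.5 to 10261 UMIs against 5514 and 6165), each cell was also thinned to 2000 UMIs. The expected shares then were 24.0 ± 0.333% for *Tbx4*, 11.0 ± 0.410% for *Tbx5* and 8.83 ± 0.176% for *Pitx1* in the penis (SD, n = 3).

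At the same depth, 7.37% of hindlimb cells held *Tbx4*, 0.845% *Tbx5* and 15.0% *Pitx1*. The forelimb shares were 1.09% for *Tbx4*, 13.3% for *Tbx5* and 0.150% for *Pitx1*. At this depth penis and limbs stood in the order of their CPM for each gene. Without thinning, many penis cells held several molecules: 19.6% to 20.7% of mesenchyme-like cells had at least 3 UMIs of *Tbx4*, 4.12% to 5.29% of *Tbx5* and 5.74% to 6.97% of *Pitx1*. In the hindlimb those shares were 1.04%, 0.0305% and 6.26%, so that for *Pitx1* the penis range spanned the hindlimb value. In the forelimb, 2.77% of cells had at least 3 UMIs of *Tbx5*, below every penis library, although its CPM was higher there.

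White blood-like cells, a type not known to use these factors, were taken as the background level. In the penis, 2.47% of them held *Tbx4*, 0.987% *Tbx5* and 0.283% *Pitx1* without thinning, at medians of 6138 to 7215 UMIs. In the hindlimb, *Tbx5* was found in 269 of 9831 mesenchyme-like cells, 2.74% (2.42% to 3.08%). The share was 0.0837% of 1195 white blood-like cells, which had a deeper median of 7662 UMIs. The low *Tbx5* of the hindlimb mesenchyme was therefore above the level of the white blood-like cells.

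In the forelimb, *Tbx4* was found in 327 of 10723 mesenchyme-like cells, 3.05% (2.73% to 3.39%), against 0.302% of white blood-like cells (median 6404 UMIs). Muscle-like cells of the forelimb, with a median of 8207 UMIs, held *Tbx4* in 3.01% of cells. *Pitx1* was found in 43 of these mesenchyme-like cells, 0.401% (0.290% to 0.540%), against 0.0756% of 1323 white blood-like cells. That background share rests on very few cells, and whether mesenchyme lay above it was not tested. *Pitx1* was found in 1.99% of muscle-like cells, so muscle-like cells carried more *Pitx1* than mesenchyme in this limb. Cells whose barcode also occurred in the other limb made up 2 of the 422 hindlimb cells with *Tbx5*, 4 of the 664 forelimb cells with *Tbx4* and 0 of the 121 forelimb cells with *Pitx1*.

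Across the cell types of the penis with enough cells to test, the mean levels of all 3 genes were highest in mesenchyme-, chondrocyte- and tendon-like cells, lower in mural-like cells, and lowest in the endothelial-, glial-, keratinocyte- and white blood-like cells. Chondrocyte-like cells, which make cartilage matrix, held *Tbx4* at 79.7, 70.7 and 91.6 CPM, *Tbx5* at 37.5, 34.5 and 45.2 CPM and *Pitx1* at 64.6, 76.9 and 78.6 CPM in penis 1, 2 and 3. *Tbx4* and *Tbx5* were below the mesenchyme-like values in all 3 libraries, and *Pitx1* was above them in all 3. How often other genes separate these types in all libraries was not computed.

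Each type was then tested against mesenchyme-like cells with edgeR over 14687 genes, with the library as a block. In chondrocyte-like cells, the log2 fold change was -0.89 for *Tbx4* (SE 0.09, edgeR adjusted p = 2.93e-09), -0.68 for *Tbx5* (SE 0.13, edgeR adjusted p = 1.42e-04) and 0.44 for *Pitx1* (SE 0.10, edgeR adjusted p = 0.00109). All of these passed the limit on p and none the limit on fold, so 0 of 3 were called, beside 10.4% of all genes. With a gate of 4 markers in place of 3, *Tbx4* reached -1.16 and was called, beside 12.1% of all genes.

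Tendon-like cells, which are marked by genes such as *Tnmd*, held a mean of 87.0 ± 11.0 CPM of *Tbx4*, 46.0 ± 4.11 of *Tbx5* and 54.8 ± 5.45 of *Pitx1* (SD, n = 3). The log2 fold change was -0.66 for *Tbx4* (SE 0.09, edgeR adjusted p = 2.27e-06), -0.33 for *Tbx5* (SE 0.13, edgeR adjusted p = 0.0813) and 0.11 for *Pitx1* (SE 0.11, edgeR adjusted p = 0.539). None was called, beside 6.78% of all genes, and only *Tbx4* passed the limit on p. With a gate of 4 markers *Tbx4* reached -1.05 and was called, beside 8.70% of all genes.

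In mural-like cells, the contractile cells around vessels, *Tbx4* averaged 56.3 ± 6.08 CPM, *Tbx5* 21.9 ± 4.88 and *Pitx1* 17.7 ± 8.22 (SD, n = 3). All 3 fell against mesenchyme-like cells, by 1.44, 1.53 and 1.64 on the log2 scale (edgeR adjusted p = 1.03e-06, 0.00158 and 4.22e-04), and 9.78% of all genes were called. Only 41 to 53 cells per library were mural-like, with 2 to 15 UMIs of a gene in a library. A further 420, 399 and 326 cells of penis 1, 2 and 3 passed both the mural and the mesenchyme gate and were left out as mixed, so the mural-like values rest on the smaller remainder. *Tbx5* lost its call without penis 1 (-1.61) or without penis 2 (-1.36), and *Pitx1* without penis 1 (-1.31).

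In the remaining types the genes were low. *Tbx4* averaged 2.86 CPM in endothelial-like, 2.30 in glial-like, 3.01 in keratinocyte-like and 3.53 in white blood-like cells, and *Tbx5* and *Pitx1* stayed at or below 1.84 CPM. All 12 differences from mesenchyme were called, with log2 fold changes between -4.47 and -6.73. The background was high: 32.4% of genes were called in endothelial-like, 27.8% in glial-like, 34.3% in keratinocyte-like and 46.0% in white blood-like cells. Over the 7 types, 15 of the 21 differences of the limb identity factors were called. Osteoblast-like cells numbered only 17 to 21 per library, too few to test.

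**Figure D2:**
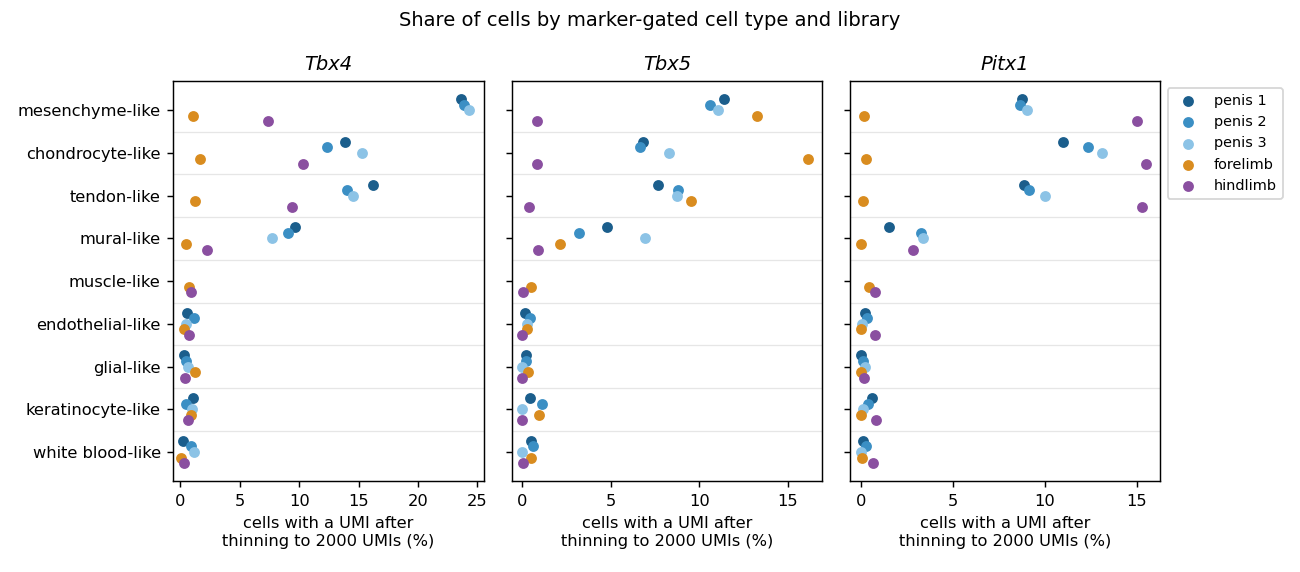
Share of cells with a UMI of each gene after thinning to 2000 UMIs, in percent, for each marker-gated type with at least 20 cells (rows) and each library (points, vertically spread for legibility). *Tbx4* is highest in the mesenchyme-like cells of the penis (23.7% to 24.3%), *Pitx1* is similar in the mesenchyme-, chondrocyte- and tendon-like cells of the hindlimb (15.0% to 15.5%), and all 3 genes are low in muscle-, endothelial-, glial-, keratinocyte- and white blood-like cells.

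The limbs distributed the genes over cell types differently. In the hindlimb, *Tbx4* was at 52.3 CPM (49.0 to 55.7) in chondrocyte-like and 47.4 CPM (40.9 to 54.7) in tendon-like cells, both above the 36.9 CPM of mesenchyme-like cells, which is the opposite order to the penis. *Pitx1* was nearly level in the hindlimb, at 87.5 CPM in chondrocyte-like and 87.3 CPM in tendon-like cells. In the forelimb, *Tbx5* was at 91.6 CPM (86.2 to 97.2) in chondrocyte-like and 52.0 CPM (45.5 to 59.2) in tendon-like cells, against 70.8 CPM in mesenchyme.

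Whether the penis and the hindlimb differed unequally between types was tested as an interaction, with mesenchyme-like cells as the reference, over 16995 genes. *Tbx4* differed less between penis and hindlimb in chondrocyte-like cells, by a log2 fold change of -1.36 (SE 0.17, edgeR adjusted p = 1.38e-07), beside 6.25% of genes called. In tendon-like cells the interaction of *Tbx4* was -1.02 (SE 0.19, edgeR adjusted p = 4.70e-04), beside 2.59% of genes called, and it fell under the fold limit without penis 2 (-0.963) or penis 3 (-0.995). Taken within chondrocyte-like cells alone, *Tbx4* was higher in penis than hindlimb by 0.63 on the log2 scale, and within tendon-like cells by 0.93, both short of the fold limit.

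The other interactions with the hindlimb were not called. For *Pitx1* in chondrocyte-like cells the value was 0.50 (SE 0.17, edgeR adjusted p = 0.0433) and for *Tbx5* -0.46 (SE 0.30, edgeR adjusted p = 0.370). In all, 2 of 21 were called. The shares of all genes called were 6.71% in endothelial-like, 6.78% in glial-like, 7.27% in keratinocyte-like, 1.21% in mural-like and 15.1% in white blood-like cells. The 3 penis values of these types rested on few UMIs, and SEs there reached 8.75.

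The same interaction against the forelimb was computed after the levels by type had been seen. In chondrocyte-like cells the interaction was -1.04 for *Tbx5* (SE 0.21, edgeR adjusted p = 3.70e-04) and -1.42 for *Tbx4* (SE 0.24, edgeR adjusted p = 3.58e-05), beside 6.53% of genes called. The value of *Tbx5* fell just under the fold limit without penis 1 (-0.98) or penis 2 (-0.99). In endothelial-like cells *Tbx4* gave -4.35 (SE 1.06, edgeR adjusted p = 0.00390), beside 6.27% of genes called, but with only 4 UMIs in 293 forelimb cells. These were 3 calls of 21. None was called in tendon-like (2.55% of genes), glial-like (6.54%), keratinocyte-like (6.24%), mural-like (1.08%) or white blood-like cells (14.1%).

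The chondrocyte-like cells of penis and limb were not alike in their markers. Those of the penis held a median of 3 cartilage and 5 mesenchyme markers in each library, and those of both limbs 5 cartilage and 2 mesenchyme markers. Tendon-like cells held 3 tendon and 5 mesenchyme markers in the penis and 3 or 4 tendon and 4 mesenchyme markers in the limbs. The part of this difference in the interactions was not tested.

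*Tbx4* and *Tbx5*, which belong to different limbs, were found together in the penis. Of mesenchyme-like cells, 30.5%, 27.1% and 26.5% held UMIs of both genes, a mean of 28.0 ± 2.15% (SD, n = 3), where separate detection within depth deciles would give 25.8%. *Tbx5* was found in 44.0% of cells with *Tbx4* and 30.5% of cells without it. Because a deeper cell shows more of every gene, the odds ratio was taken within deciles of depth, and was 1.60, 1.55 and 1.51 in the 3 libraries. Leaving out the deepest decile gave a mean of 1.53.

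*Tbx4* and *Pitx1*, both genes of the hindlimb, were found together in 18.0%, 17.3% and 16.9% of cells, with odds ratios of 0.777, 0.791 and 0.864 (mean 0.811 ± 0.0467, SD, n = 3). The ratio lay below 1 in each library, although the interval of penis 3 reached 1.02. Without depth deciles the mean was 0.984, and over all filtered cells, which mix mesenchyme with types that lack both genes, it was 1.57. *Tbx5* and *Pitx1* gave odds ratios of 0.995, 1.13 and 1.06, which straddled 1.

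All 3 genes at once were seen in 8.63%, 8.20% and 7.80% of penis mesenchyme-like cells, which are 333, 330 and 257 cells. The forelimb had 0 of 10723 such cells and the hindlimb 16 of 9831 (0.163%). These shares were not thinned, penis cells were deeper than limb cells, and the share with all 3 genes was not computed at equal depth. After thinning to 2000 UMIs, the expected share with *Tbx4* and *Pitx1* was 1.86% in penis (mean of 3 libraries) and 1.16% in hindlimb. For *Tbx4* and *Tbx5* it was 3.19% and 0.0527%. A cell without a UMI need not lack the RNA, and a UMI can come from free RNA or a doublet. No background was taken off these counts, the 16 hindlimb cells included.

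The pairings of the limbs differed in part. In the hindlimb the odds ratio of *Tbx4* and *Pitx1* was 1.17 (1.05 to 1.30), with both genes in 808 cells. That interval overlaps with none of the 3 penis libraries, but with 1 hindlimb library the difference was not tested. *Tbx5* in the hindlimb had an odds ratio of 0.728 (0.559 to 0.948) with *Pitx1*, and 0.725 (0.523 to 1.01) with *Tbx4*. In the forelimb the odds ratio of *Tbx4* and *Tbx5* was 1.49 (1.19 to 1.88). Of the 327 forelimb cells with *Tbx4*, 0 held *Pitx1*, where 1.35 were expected from the shares of both genes within depth deciles, too few to show a difference.

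**Figure D3:**
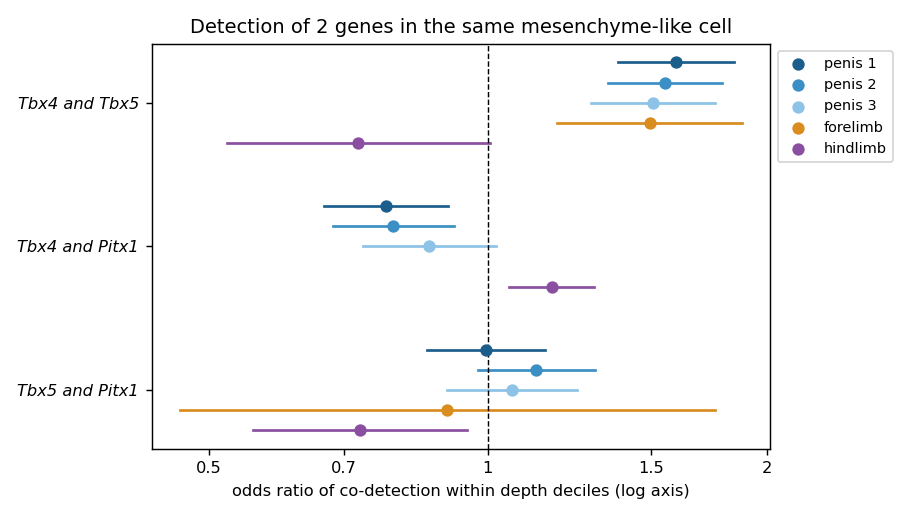
Odds ratio of finding 2 genes in the same mesenchyme-like cell, taken within deciles of depth (log axis), with 95% counting intervals, for each library. *Tbx4* and *Tbx5* lie above 1 in the 3 penis libraries (1.51 to 1.60), *Tbx4* and *Pitx1* lie below 1 in penis (0.777 to 0.864) and above 1 in hindlimb (1.17), and the forelimb has no point for the latter pair because no cell held both.

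In the chondrocyte-like cells of the penis, *Tbx4* and *Pitx1* had odds ratios above 1, with a mean of 1.63 ± 0.225 (SD, n = 3 libraries of 177 to 234 cells). The interval of each library included 1 (0.775 to 2.51, 0.933 to 2.94 and 0.943 to 3.60). *Pitx1* was found in 47.4% of chondrocyte-like cells with *Tbx4* and 30.6% of those without. For *Tbx4* and *Tbx5* the mean in these cells was 1.75 ± 0.465. The chondrocyte-like values of *Tbx4* with *Pitx1* lay above the mesenchyme-like values in 3 of 3 libraries, but the intervals overlapped in penis 1 and penis 3, and the difference was not tested.

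To describe what else the cells with each factor held, penis mesenchyme-like cells were thinned to 4000 UMIs and split by detection of the gene, and cells with and without it were summed per library and compared with edgeR, with the library as a block and a log2 limit of 0.5. The gene that made the split was left out. The 3 splits use the same cells, so they are not independent, and genes at low counts are in part misassigned because a cell without a UMI may hold the RNA. The split by *Tbx5* was added after its penis level had been seen.

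Cells with *Tbx4* were 1255 to 1506 per library. Their *Tbx5* was at 72.1 CPM against 51.9 CPM in the other cells, a log2 fold change of 0.45 (SE 0.06, edgeR adjusted p = 7.34e-07), higher in 3 of 3 libraries. Their *Pitx1* was at 44.6 CPM against 53.9 CPM, a log2 fold change of -0.30 (SE 0.07, edgeR adjusted p = 0.00111), higher in 0 of 3 libraries. Neither passed the fold limit, beside 3.60% of 15064 genes called, 303 higher and 239 lower.

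Among the genes called higher with *Tbx4*, the top values were those of *Lrp1b*, a large lipoprotein receptor (log2 fold change 1.72), *Tac1*, the substance P precursor (1.69), *Bmp3*, a bone morphogenetic protein (1.68), and *Erc2*, a scaffold of presynaptic active zones (1.62). *Grik1*, a kainate receptor subunit (1.58), *Rerg* (1.44), *Frem1*, an extracellular matrix protein (1.44), and *Col13a1*, a transmembrane collagen (1.42), followed. The lowest were *Myoc*, the secreted protein myocilin (-2.12), *Trf*, transferrin (-1.37), *Cxcl1*, a chemokine (-1.19), and *Igfbp6*, an IGF-binding protein (-1.01). *Angpt1*, a vessel growth factor (-0.93), *Kcnc2*, a potassium channel (-0.92), *Epas1*, a hypoxia-inducible factor (-0.91), and *Pparg*, the regulator of fat cell formation (-0.90), were next. *Myoc* stood at 17.4 CPM in cells with *Tbx4* and 74.6 CPM in the others.

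Of the limb gene lists, *Shox2*, a homeodomain factor of proximal limb skeleton, rose with *Tbx4* from 230 to 395 CPM (log2 fold change 0.75) and *Tbx2*, a T-box repressor, by 0.54. *Tbx15* (-0.87) and the BMP antagonist *Grem1* (-0.78) fell. These were 1 higher and 1 lower of 7 other T-box and Pitx genes and 1 higher and 1 lower of 20 limb initiation genes, and none of 6 Hox genes tested was called.

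Cells with *Tbx5* were 623 to 797 per library, and held *Tbx4* at 184 CPM against 138 CPM in the other cells (log2 fold change 0.39, SE 0.05, edgeR adjusted p = 1.53e-08, higher in 3 of 3 libraries). *Pitx1* was at 47.8 and 50.8 CPM (log2 fold change -0.10, SE 0.08, edgeR adjusted p = 0.565). No fold limit was passed by either, beside 1.66% of 15088 genes called, 114 higher and 136 lower. That balance depended on the setting: 49 higher and 21 lower with DESeq2, 41 and 35 at 2000 UMIs, and 77 and 52 without penis 3. More were lower without penis 1 (123 and 131) or penis 2 (85 and 87). The top genes were *Msmp*, a secreted microseminoprotein (1.60), *Csmd1* (1.11), *Thbs4*, a matrix thrombospondin (1.03), *Col13a1* (0.98), *Chst15*, a sulfotransferase of chondroitin chains (0.98), *Frem1* (0.94), *Rnf128*, a ubiquitin ligase (0.89), and *Pax3*, a paired-box factor (0.87).

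The lowest with *Tbx5* were *Myoc* (-1.06), *Kcnq5*, a potassium channel (-0.91), *Ndufa4l2* (-0.90), *Dner*, a Notch-binding membrane protein (-0.90), *Cxcl1* (-0.85), *Gm34030* (-0.83), *Crip2* (-0.80) and *Tubb2b*, a tubulin (-0.79). The listed genes called were *Msx2* (0.70) and *Shox2* (0.55), both higher, and *Ptch1*, the hedgehog receptor and target (-0.60), which are 3 of 20 limb initiation genes, and none of 7 T-box and Pitx genes was called. *Ndufa4l2* is a mural marker and *Thbs4* a tendon marker of the gates, so their range in mesenchyme-like cells was limited by the gate.

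Cells with *Pitx1* were 496 to 618 per library. They held *Tbx4* at 121 CPM against 152 CPM (log2 fold change -0.30, SE 0.06, edgeR adjusted p = 3.36e-04, higher in 0 of 3 libraries), and *Tbx5* at 56.7 CPM against 60.5 CPM (-0.05, SE 0.08, edgeR adjusted p = 0.823). The lower *Tbx4* here and the lower *Pitx1* in cells with *Tbx4* missed the adjusted p limit of 0.01 with DESeq2 (0.0708 and 0.231). With edgeR, each also missed it when certain penis libraries were left out. Neither *Tbx4* nor *Tbx5* passed the fold limit, beside 2.92% of 14991 genes called, 175 higher and 262 lower.

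Top among the genes called with *Pitx1* were *Kera*, the matrix proteoglycan keratocan (1.84), *Srgn*, the proteoglycan core serglycin (1.78), *Schip1* (1.49) and *Ostn*, the peptide osteocrin (1.42). *Gabrb1*, a GABA receptor subunit (1.38), *Itih5* (1.35) and *Anxa3*, an annexin (1.19), followed.

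At the low end with *Pitx1* were *Thbs4* (-2.21), *Bmp3* (-2.01), *Grik1* (-1.99), *Ndnf*, a secreted neurotrophic factor (-1.63), *Trhde*, a peptidase (-1.62), *Wif1*, a secreted Wnt inhibitor (-1.47), *Sez6l* (-1.39) and *Msmp* (-1.35). *Bmp3* and *Grik1* are among the top genes with *Tbx4*, and *Thbs4* and *Msmp* among the top genes with *Tbx5*. The listed genes called lower were *Lef1*, a mediator of Wnt signals (-1.13), *Tbx18* (-1.04), *Hand2*, a factor of posterior limb bud (-1.002), *Msx2* (-0.78) and *Meis2*, a factor of proximal limb (-0.69). They are 4 of 21 limb initiation genes and 1 of 8 T-box and Pitx genes. *Kera* and *Thbs4*, at opposite ends of this split, are both tendon markers of the gates, so their range in mesenchyme-like cells was limited by the gate.

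**Figure D4:**
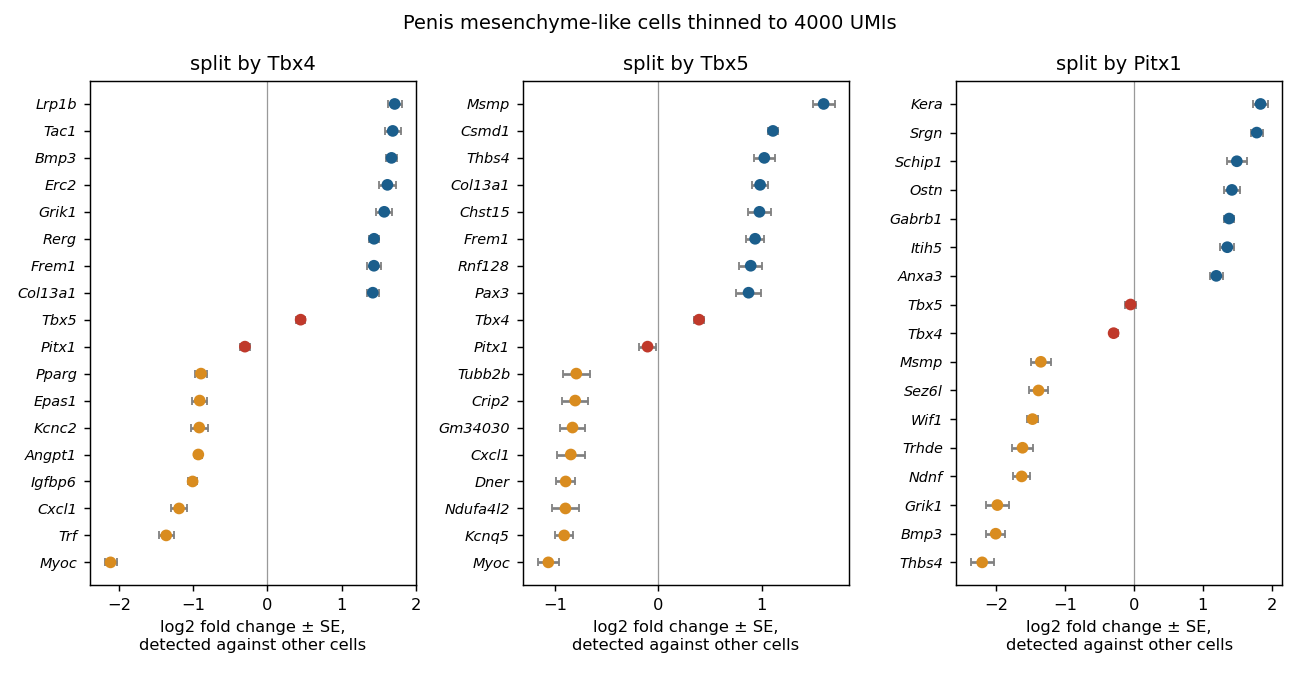
Log2 fold change ± SE between penis mesenchyme-like cells with and without a UMI of *Tbx4*, *Tbx5* or *Pitx1*, thinned to 4000 UMIs and summed within each of 3 libraries. Blue points are the highest and orange points the lowest called genes with a mean of at least 20 CPM (at most 8 each, without a gene not reported here), and red points the other limb identity factors, which lie between -0.30 and 0.45, far inside the range of the named genes.

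The genes that work around the limb identity factors were read in mesenchyme-like cells from 4 lists, beside 24.6% of all genes called against the hindlimb and 23.4% against the forelimb. Of the other T-box and Pitx genes, 13 of 17 passed the filter, 4 rose and 3 fell in the penis against the hindlimb (median log2 fold change -0.09, against 0.01 over all genes), and 3 rose and 5 fell against the forelimb (median -0.13, against 0.01). *Tbx3*, a T-box repressor of limb patterning, was at 125 to 131 CPM in the penis, 18.8 in the hindlimb and 24.4 in the forelimb. *Tbx2* was at 40.5 to 42.9 CPM in the penis and at 9.94 and 9.77 CPM in the limbs. Both genes rose against both limbs.

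*Tbx15*, a factor of limb skeleton and dermis, went the other way, from 123 CPM in the hindlimb and 140 CPM in the forelimb to 16.3 to 18.7 CPM in the penis. *Tbx1* (-1.60 and -2.41) and *Tbx21*, best known from T cells (-1.23 and -1.27), also fell against hindlimb and forelimb. *Tbx18* fell only against the forelimb by these limits (-0.40 and -1.29), and *Pitx3* rose only against the hindlimb (1.46 and 0.83). That pair of differences between the limbs was not tested.

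Of the limb initiation and outgrowth genes, 25 of 26 passed the filter, 10 rose and 6 fell against the hindlimb (median 0.58), and 10 rose and 4 fell against the forelimb (median 0.71), where 24.6% and 23.4% of all genes were called. *Isl1*, the LIM factor that precedes hindlimb budding and is a known gene of the genital tubercle, was at 250, 248 and 255 CPM in the penis, 2.81 CPM in the hindlimb and 0.236 CPM in the forelimb, log2 fold changes of 6.47 and 10.01. The LIM factors of limb patterning went the other way: *Lmx1b*, which gives dorsal identity, was at 0.296 to 0.421 CPM in the penis and 33.8 and 25.8 CPM in hindlimb and forelimb. *Lhx2* was at 0.065 to 0.271 CPM against 14.3 and 14.6 CPM, and *Lhx9* at 0.887 to 1.09 CPM against 14.8 and 16.8 CPM.

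*Msx1* and *Msx2*, homeodomain targets of BMP signalling, rose by 2.48 and 2.42 against the hindlimb and 2.31 and 2.14 against the forelimb. *Sall4* (2.39 and 2.54) rose as well, with only 7 to 38 UMIs in a library, and *Bmp4* rose by 1.53 and 1.46. *Fgf10*, the target through which *Tbx4* and *Tbx5* start limb outgrowth, had log2 fold changes of 0.25 against the hindlimb and 0.85 against the forelimb and was not called. *Shh* was below the filter.

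The posterior HoxC genes were nearly absent from the forelimb. Of the posterior HoxC genes, 4 of 5 passed the filter: 1 rose and 0 fell against the hindlimb (median 0.58), and 4 rose and 0 fell against the forelimb (median 7.35). *Hoxc10* was at 18.6, 18.4 and 18.3 CPM in the penis and 29.0 CPM in the hindlimb, and *Hoxc11* at 26.9 to 28.4 and 12.8 CPM. *Hoxc9* was nearly equal, at 7.38 to 7.47 CPM in the penis and 7.10 CPM in the hindlimb (log2 fold change 0.06, SE 0.11, edgeR adjusted p = 0.679). In the forelimb these genes had 1, 4 and 8 UMIs. *Hoxc13*, also called against the forelimb, was near the floor, with 9, 11 and 9 UMIs in penis 1, 2 and 3, and 2 in the forelimb. Of the anterior Hox genes, 5 of 6 passed the filter: 0 rose and 1 fell against the hindlimb (median -0.14), and 1 rose and 2 fell against the forelimb (median 0.19). The 1 of 5 called against the hindlimb is close to the 24.6% of all genes called there. *Hoxb4* fell in both (-1.32 and -3.13), *Hoxb5* fell against the forelimb, with 63 UMIs there and at most 2 in a penis library, and *Hoxc5* rose against it (2.10).

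**Figure D5:**
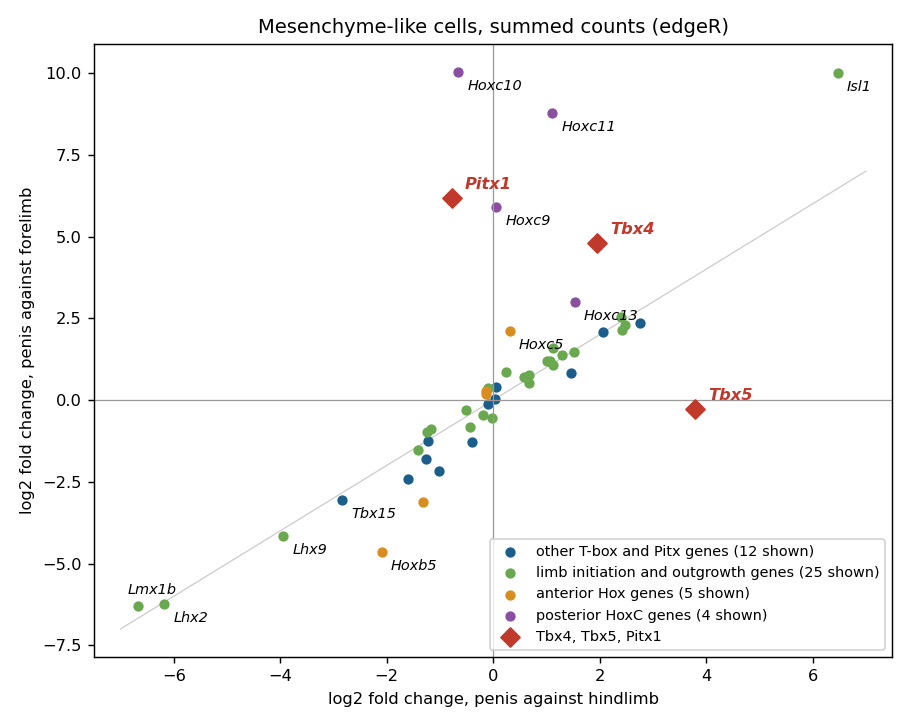
Log2 fold change of penis against hindlimb (horizontal) and against forelimb (vertical) in mesenchyme-like cells, for the limb identity factors and the tested genes of 4 lists that are reported here. The line marks equal values: *Pitx1* (-0.78, 6.17), *Tbx4* (1.95, 4.81) and *Tbx5* (3.80, -0.27) lie off it, as do the posterior HoxC genes and *Isl1* (6.47, 10.01). *Lmx1b*, *Lhx2* and *Tbx15* lie near it, with negative values on both axes. *Hoxc10* had 1 UMI in the forelimb, so its height depends on the prior count.

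The genes most alike to each factor were ranked by Pearson correlation of log2(CPM + 5) over 38 sums of a library and a cell type, among 13137 genes. These sums share libraries, so the values are a description. For *Tbx4* the closest were *Hoxa13*, a gene of distal limb and genital tubercle (0.947), *Pitx1* (0.940), *Tspan11* (0.938), *Foxf2* (0.933) and *Greb1l* (0.930). For *Pitx1* they were *Tbx4* (0.940), *Rtl4* (0.878), *Hoxa13* (0.878), *Hoxa11* (0.864) and *Prr16* (0.864). Over these sums, which span 3 tissues and types low in both genes, *Tbx4* and *Pitx1* went together. Within penis mesenchyme-like cells their odds ratio lay below 1. From mesenchyme-like to chondrocyte-like cells of the penis, mean *Tbx4* fell from 144 to 80.7 CPM while *Pitx1* rose from 52.4 to 73.4 CPM.

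For *Tbx5* the closest genes were *Gm43050* (0.943), *C1qtnf2* (0.896), *Calml4* (0.894), *Insyn1* (0.892) and *Prrx2*, a homeodomain factor of mesenchyme (0.887). *Tbx5* correlated with *Tbx4* at 0.732 and with *Pitx1* at 0.565. *Gm43050* is a lincRNA on the opposite strand whose annotated span (chr5:119828448-119831920) ends 747 bases before *Tbx5*. In mesenchyme-like cells it was at 20.5, 20.7 and 19.7 CPM in the penis, 10.1 CPM in the forelimb and 0.481 CPM in the hindlimb. *Gm47071*, antisense to *Pitx1*, was at 13.05 to 13.8 CPM in the penis, 16.4 CPM in the hindlimb and 9.22 CPM in the forelimb, where *Pitx1* itself was at 0.708 CPM.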

How the data were processed

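Glans penis, forelimb and hindlimb cells were profiled with the 10X 3' v3.1 kit. The authors deposited whole-number UMI counts, unnormalized, for every gene in every barcode, made with Cell Ranger 7.0.0 on mm10; whether introns were counted is not given in the sources used here, and Cell Ranger counts sense-strand reads by default. The submitters' later normalization is not in the files. Each library is a sample of its group, and no table column belonged to another series.

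Barcodes were kept at 500 to 6000 detected genes (penis), 100 to 9000 (forelimb) or 100 to 9500 (hindlimb), at most 5% mitochondrial UMIs (penis) or 10% (limbs), and a log10 gene to log10 UMI quotient of at least 0.8. No doublet caller was run: cells passing more than 1 gate were left out as mixed (10.7% to 11.5% of penis, 7.21% of limb cells), with chondrocyte, osteoblast and tendon gates taking priority over mesenchyme, and 8.28% to 17.1% passed no gate. Levels, thinned shares and Mantel-Haenszel odds ratios were computed in Python 3.11.15 with numpy 2.4.6 and pandas 2.3.3, intervals with scipy 1.17.1, and plots with matplotlib 3.10.9.

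UMI sums were tested with edgeR 4.0.16 (R 4.3.3, limma 3.58.1): TMM, filterByExpr, quasi-likelihood test, Benjamini-Hochberg adjustment over all genes, types with at least 20 cells per library, and an SE from dividing the size of each log2 fold change by the root of its F statistic. DESeq2 1.42.0, other scaling, filters, gates, thinning depths and left-out libraries were alternatives. On simulated sums, 100% of 200 changed genes were recovered for each penis to limb comparison (20676 genes) and 99.5% for the split by *Tbx4* (15065 genes), with 0 false calls. The changed genes were well counted and their changes were set above the fold limits. Every library, limbs included, was drawn at a single dispersion fitted to these data. Smaller changes and a wider spread of the limb libraries were not tried, so the simulation checks the code only. The 3 genes, the lists and the tests were chosen with earlier results of these data known. Named genes were the 3 factors, called list genes (at most 8 a list, by size), the 5 most correlated genes, and in each split the 8 highest and 8 lowest called genes of at least 20 CPM plus called list genes. A gene that the rule names, and a stretch of sequence, are not reported here. *Fgf10*, *Shh* and *Hoxc9* were named after their values were seen. Symbols occurring more than once (38) were kept by gene ID. Penis replicate numbers pair with no limb sample, since each limb has 1 library. Within the penis, the types and the split sums of a library come from the same suspension of cells, so the library was a block.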

Additional observations from a re-analysis of the deposited data

Results flagged for a closer look

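The difference between penis and limb was unequal between cell types in 5 tests of an interaction, each relative to mesenchyme-like cells, out of 21 run for each limb. For penis against hindlimb, *Tbx4* gave a log2 value of -1.36 in chondrocyte-like cells (SE 0.17, edgeR adjusted p = 1.38e-07) and -1.02 in tendon-like cells (SE 0.19, edgeR adjusted p = 4.70e-04). For penis against forelimb, a comparison chosen after the levels by type were seen, *Tbx4* gave -1.42 (SE 0.24, edgeR adjusted p = 3.58e-05) and *Tbx5* -1.04 (SE 0.21, edgeR adjusted p = 3.70e-04) in chondrocyte-like cells, and *Tbx4* gave -4.35 in endothelial-like cells (SE 1.06, edgeR adjusted p = 0.00390), where the forelimb held 4 *Tbx4* UMIs. Of all genes, 1.08% to 15.1% were called in these interactions, depending on the type. Without 1 penis library, *Tbx4* in tendon-like cells fell as far as -0.963 and *Tbx5* in chondrocyte-like cells as far as -0.98, both under the fold limit. All 5 have 1 limb library behind them, and chondrocyte-like cells held a median of 3 cartilage markers in the penis and 5 in the limbs. The part of that marker difference was not tested.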

How the results depend on the processing

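Of the log2 fold changes of *Tbx4*, *Tbx5* and *Pitx1* under other settings, 318 of 351 kept their direction and side of the limits, as did 112 of 123 counts of called genes (within 1.5 times). Of the other values (odds ratios, shares and levels), 24 of 45 stayed within the spread between replicates (in a limb, within the counting interval), 20 moved and 1 reversed. Among those that moved are the shares unthinned and at other thinning depths, and such shares depend on depth by construction. Where any other value moved, the cause was not tested. The split by *Tbx5*, the contrasts in chondrocyte-like and tendon-like cells, the interactions with forelimb and the omission of libraries from the interactions were chosen after seeing the data.

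With both limbs as 1 group, *Tbx5* was 0.65 and *Pitx1* 0.21, neither called, in a fit that counts the difference between the limbs as spread. In chondrocyte-like cells *Tbx4* against hindlimb was 0.63 and *Tbx5* against forelimb -1.26, with 2300 and 2061 genes called for hindlimb and forelimb, and in tendon-like cells *Tbx4* against hindlimb was 0.93, with 1634 and 1509 genes called. A gate of 4 markers gave *Tbx4* -1.16 in chondrocyte-like and -1.05 in tendon-like cells, and *Pitx1* -0.070 in tendon-like cells.

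Splits of cells thinned to 2000 UMIs gave *Tbx5* 0.31 and *Pitx1* -0.20 with *Tbx4* (359 genes called), *Tbx4* 0.30 with *Tbx5* (76 genes), and *Tbx4* -0.18 and *Tbx5* 0.12 with *Pitx1* (145 genes). DESeq2 gave *Pitx1* -0.30 with *Tbx4* (261 genes), 70 genes with *Tbx5*, and *Tbx4* -0.29 with *Pitx1* (222 genes). None of the 3 factors passed the limit of 0.5 in another's split. *Tbx4* and *Pitx1* met the adjusted p limit of 0.01 in each other's split with edgeR at 4000 UMIs on all 3 libraries. They missed it with DESeq2 and at 2000 UMIs, and in some of the fits that left out a library. The adjusted p of *Pitx1* with *Tbx4* was 0.231 with DESeq2 and 0.276 with edgeR at 2000 UMIs, and that of *Tbx4* with *Pitx1* was 0.0708 and 0.462.

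The penis library numbers pair with no limb library, so the only block was the library within the penis. With no such block the splits called 468 genes with *Tbx4*, 203 with *Tbx5* and 385 with *Pitx1*.

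Leaving out 1 penis library at a time gave -1.61 to -1.36 for *Tbx5* (adjusted p above 0.01 without penis 1 or 2) and -1.90 to -1.31 for *Pitx1* (above 0.01 without penis 1) in mural-like cells. In the interactions with hindlimb it gave -1.16 to -0.963 for *Tbx4* in tendon-like cells (under the limit of 1 without penis 2 or 3), -0.52 to 0.24 for *Pitx1* in keratinocyte-like and -0.70 to 0.20 for *Tbx5* in white blood-like cells, both above 0 without penis 3. In those with forelimb it gave -1.14 to -0.98 for *Tbx5* in chondrocyte-like cells (under the limit without penis 1 or 2), -0.18 to 0.53 for *Tbx5* and -0.24 to 0.49 for *Pitx1* in endothelial-like cells (below 0 without penis 2), -0.71 to 0.15 for *Tbx5* in glial-like cells (above 0 without penis 3) and -0.037 to 0.19 for *Tbx5* in mural-like cells (below 0 without penis 1). In the splits it gave -0.32 to -0.27 for *Pitx1* with *Tbx4* (adjusted p above 0.01 without penis 1 or 2), -0.35 to -0.24 for *Tbx4* with *Pitx1* (above 0.01 without penis 2) and 129 (without penis 3) to 254 genes with *Tbx5*.

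Odds ratios without depth deciles were 1.79 for *Tbx4* with *Tbx5*, 0.984 for *Tbx4* with *Pitx1* and 1.26 for *Tbx5* with *Pitx1*, and over all filtered cells 2.79, 1.57 and 1.56. Shares of penis mesenchyme-like cells unthinned, at 1000 and at 4000 UMIs were 63.5%, 13.3% and 39.3% for *Tbx4*, 39.1%, 5.76% and 20.2% for *Tbx5*, and 27.5%, 4.69% and 15.7% for *Pitx1*. Over all deposited barcodes the penis held 89.6 CPM of *Tbx4*, 37.9 of *Tbx5* and 34.5 of *Pitx1*, the hindlimb 30.3 of *Tbx4* and 63.8 of *Pitx1*, and the forelimb 52.1 of *Tbx5*.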
